A study of Mus musculus with 18 samples.

Results

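Near-projecting neurons of the prefrontal cortex (PFC) were studied as the nuclei that carried the transcripts of Tshz2, a zinc finger homeobox gene, and Vwc2l, a secreted protein related to the BMP antagonist brorin. A nucleus of PFC was taken as a member when it held at least 4 unique molecular identifiers (UMIs, each standing for 1 captured transcript) of Tshz2, at least 1 of Vwc2l and at least 1 of Slc17a7, the vesicular glutamate transporter of cortical excitatory neurons. It could hold at most 1 UMI of Gad1 and Gad2 together, at most 1 of the glial and vascular genes Mog, Mag, Pdgfra, Aqp4, Gja1, Csf1r and Flt1, and at most 2 of Syt6, Nxph4 and Cplx3, which mark layer 6 neurons. These 672 nuclei were 1.01% of the 66602 PFC nuclei kept, out of 138000 kept nuclei of PFC and hippocampus (Hip). They were 1.90% of the 35450 PFC nuclei that met the same limits on Slc17a7, Gad1, Gad2 and the glial genes, called excitatory here.

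The nuclei came from 9 Kun Ming mice, an outbred stock, aged 8 weeks, with 3 mice in each of 3 groups and 1 PFC library for each mouse. Germ-free (GF) mice lacked a microbiota, specific pathogen-free (SPF) mice carried one free of specified pathogens, and colonized germ-free (CGF) mice were GF mice that had been kept together with SPF mice in a gnotobiotic isolator. The labels give no further treatment of any group. GF and CGF mice shared this kind of housing and the SPF mice were raised apart from them, so that housing and microbiota cannot be told apart between GF and SPF mice.

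Near-projecting neurons are excitatory pyramidal cells of the deep layers whose axons stay close to the cell body. They send no long axon to the brainstem or thalamus and few to distant cortex, which sets them apart from the extratelencephalic cells of layer 5, which express Fezf2, and from the corticothalamic cells of layer 6, which express Syt6 and Foxp2. Tshz2 and Vwc2l are their usual markers, beside Lypd1, Trhr, Slc17a8 and the serotonin receptor gene Htr2c.

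The PFC libraries held 67698 barcodes, of which 1096 were left out for over 10% mitochondrial UMIs and 0 for fewer than 200 genes. The 3 GF libraries were deeper, with 59126586 to 71463928 UMIs against 20336250 to 26949210 in the SPF and 22213863 to 26151503 in the CGF libraries. The median member held 2904.5 to 3260 UMIs in the SPF libraries, 2593 to 3865 in the CGF and 6823 to 7734 in the GF libraries. Mitochondrial genes took 1.30% to 2.36% of member UMIs in the SPF group, 1.06% to 1.58% in the CGF and 0.318% to 0.529% in the GF group. The GF libraries therefore stood apart from both other groups in depth and composition, and for every difference of GF mice below, the group and whatever else set its libraries apart, depth included, cannot be told apart. The Hip libraries of all 3 groups held 49067853 to 63217083 UMIs, so that the shallower libraries were those of PFC from SPF and CGF mice. Of 67156 distinct PFC barcodes 540 occurred in 2 or more PFC libraries, among them those of 11 members, and 0 barcodes were members in 2 libraries.

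The gene that defines the members was abundant in them. Tshz2 (mm10, chr2:169633013-170071816, plus strand) reached 94 UMIs in a single nucleus, and its median per nucleus was 24 to 25 UMIs in the GF libraries and 7 to 12 in the others. Vwc2l lies at chr1:70725715-70885397 on the plus strand. Both were used to choose the nuclei, so their levels describe the choice. Near the limit of the rule, the 22 nuclei with 3 Tshz2 UMIs that met all its other limits held 1.01 UMIs of the near-projecting genes per 10000 UMIs, and the 42 members with 4 held 2.62. By group the values at 3 and 4 Tshz2 UMIs were 0 and 1.36 in GF, 4.83 and 3.66 in SPF, and 3.66 and 3.72 in CGF nuclei.

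The identity of the members was read from 9 near-projecting genes that took no part in the rule (Htr2c, Lypd1, Trhr, Slc17a8, Rapgef3, Nxph2, Sla2, Tph2 and Cpne7). They were set beside 3 other sets of excitatory nuclei with at most 3 Tshz2 UMIs. The layer 6 corticothalamic gate (at least 2 Syt6 UMIs, at most 2 of Nxph4 and Cplx3) had 1333 nuclei. The layer 5 Fezf2 gate had 218, with at least 3 Fezf2 UMIs, none of Vwc2l and at most 2 of Syt6, Nxph4 and Cplx3. The other excitatory nuclei were all 34501 that held at most 3 Tshz2 UMIs, so they include both gates. A layer 6b gate found 15 nuclei, too few to compare. Levels of these genes are given as raw CPM, the UMIs of a gene scaled to a common total of UMIs for each set in each library, with no further normalization. Fezf2 was present in the members too, at a mean of 149 ± 83.2 raw CPM (SD, n = 9 libraries). Its mean was 379 in the Fezf2 gate, 37.6 in the corticothalamic gate and 24.9 in the other excitatory nuclei. These means pool groups that did not overlap. Members of GF mice had 53.6, 57.2 and 59.6 raw CPM of Fezf2, and the lowest SPF or CGF library had 112. The highest GF library and the lowest of the others were 205 and 358 in the Fezf2 gate. They were 20.7 and 29.0 in the corticothalamic gate, and 11.5 and 25.7 in the other excitatory nuclei. The cause of this difference was not tested.

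Htr2c (chrX:146962513-147197277, plus strand) encodes the 2C serotonin receptor. In the members it stood at 593, 343 and 394 raw CPM in the 3 GF libraries, 288, 224 and 311 in the SPF libraries, and 277, 406 and 315 in the CGF libraries. No library of the other sets came near these levels, with 6.02 to 52.8 raw CPM in the corticothalamic gate, 11.6 to 38.3 in the Fezf2 gate and 27.9 to 48.1 in the other excitatory nuclei. Lypd1, which encodes a membrane-anchored regulator of nicotinic receptors, had a mean of 141 ± 39.8 raw CPM in the members (SD, n = 9 libraries), and its highest mean in another set was 25.9, in the other excitatory nuclei.

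Trhr, the receptor of thyrotropin-releasing hormone, and Slc17a8, the vesicular glutamate transporter VGLUT3, were low in the members and near 0 in the other sets. Trhr had 44.9 ± 18.2 raw CPM in the members (SD, n = 9, range 16.2 to 66.1), and its highest library in any other set was 2.45. Slc17a8 ranged from 8.08 to 70.8 in the members, with a mean of 37.2, and reached at most 6.18 elsewhere. Rapgef3, the cyclic AMP sensor EPAC1, had a mean of 44.9 against 1.99, 1.20 and 4.65. These 5 genes were higher in the members than in each other set in 9 of 9 libraries. Nxph2 was so in 7 of 9 libraries and Sla2 in 3, Tph2 had only 5 UMIs in all members together, and Cpne7 had 0 UMIs in every set.

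**Figure D1:**
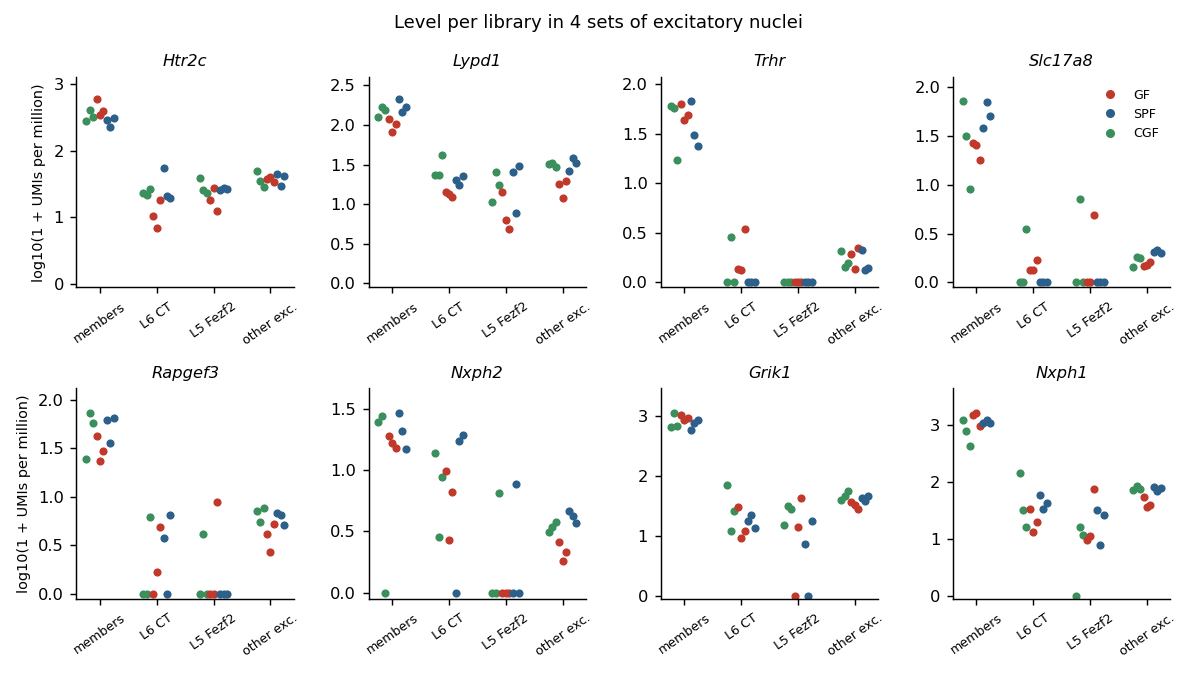
Level of 8 genes in the members and 3 other sets of PFC excitatory nuclei, as log10 of 1 plus raw CPM (vertical axis), 1 point per library, coloured by group. "L6 CT" is the layer 6 corticothalamic gate, "L5 Fezf2" the layer 5 Fezf2 gate and "other exc." the other excitatory nuclei. For Htr2c, Lypd1, Trhr, Slc17a8, Rapgef3, Grik1 and Nxph1 every member point lies above those of its library in the other sets, and Nxph2 is so in 7 of 9 libraries.

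Counted nucleus by nucleus, Htr2c was seen in 55.7% of the members and Lypd1 in 43.6%, Trhr in 21.3%, Rapgef3 in 18.2% and Slc17a8 in 14.1%. After each nucleus was thinned to 2000 UMIs, which left out 55 shallower members, the shares were 41.3%, 22.0%, 9.56%, 6.32% and 6.16%. In an oligodendrocyte gate (540 nuclei, 269 after thinning), cells that should lack these genes, Htr2c was seen in 3.15% before and 2.60% after thinning, Lypd1 in 3.70% and 3.35%, Slc17a8 in 0.185% and 0%, and Trhr in 0 nuclei. Rapgef3 was seen there in 5.56% and 4.09%, near its thinned share in the members. Library medians were 1014.5 to 2302 UMIs per nucleus in that gate and 2593 to 7734 in the members. At least 1 of the 9 genes was seen in 81.8% of the members (61.8% thinned), against 23.3% (8.65%) of the corticothalamic gate, 30.7% (8.80%) of the Fezf2 gate, 26.0% (12.1%) of the other excitatory nuclei and 12.8% (9.67%) of the oligodendrocyte gate. At least 2 were seen in 51.0% of the members (22.9% thinned) and in at most 3.1% of any other set.

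The near-projecting list was then read by the number of Tshz2 UMIs of a member, as a description. In SPF mice the near-projecting list stood at 4.61 UMIs per 10000 in members with 4 to 7 Tshz2 UMIs, 6.37 with 8 to 15 and 7.61 with 16 or more. In CGF mice the values were 5.01, 5.17 and 9.57. In GF mice they were 0.956, 7.11 and 7.55, and the 28 GF nuclei with 4 to 7 Tshz2 UMIs stood apart from all other members. These 28 nuclei held 12700 UMIs each on average, more than the 8377 of GF members with 16 or more, and carried 6.83 UMIs of the mid-layer list per 10000 against 2.97. Whether these GF nuclei are near-projecting neurons was not tested beyond these values. The results were recomputed with a limit of 6 Tshz2 UMIs. That limit leaves out only part of the 28, the 8 GF members with 4 and the 7 with 5 Tshz2 UMIs.

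**Figure D2:**
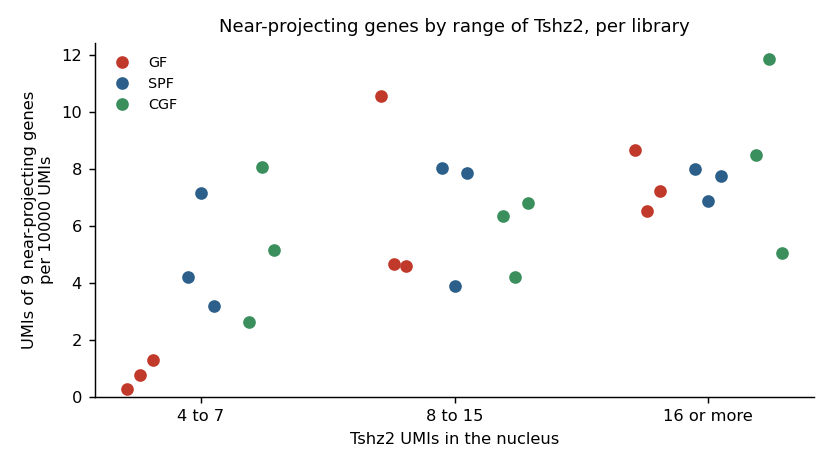
UMIs of the 9 near-projecting genes per 10000 UMIs (vertical axis) in members grouped by their Tshz2 UMIs (horizontal axis), 1 point per library, coloured by group. In the range of 4 to 7 the 3 GF libraries lie between 0.260 and 1.31, below the SPF libraries at 3.20 to 7.17 and the CGF libraries at 2.61 to 8.08.

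The layer 6 corticothalamic list (6 genes) took more UMIs in the members than any other cell type list, 22.0 to 35.7 per 10000 over libraries, against 47.0 to 75.3 in the corticothalamic gate. The upper-layer list (5) took 2.06 to 3.88 and the mid-layer list (5) 1.67 to 4.18. Lists of non-excitatory cells other than astrocytes were lower than the near-projecting list, which took 5.33 to 8.6. Summed over each list and given as the range over libraries in UMIs per 10000, the interneuron list (8 genes) took 1.27 to 2.89, the oligodendrocyte list (5) 0.896 to 1.64, the microglia list (5) 0.152 to 0.556, the vascular list (5) 0.0944 to 0.647 and the precursor list (4) 0.0590 to 0.448. The astrocyte list (5) took 7.29 to 13.9, of which most was Slc1a2, a glutamate transporter gene, at 801 to 1389 TMM-normalized CPM in the members. The corticothalamic gate had 6.96 to 11.4 for the same list. In Hip, 2830 nuclei met the rule and had a profile that was alike only in part. Their means were 273 raw CPM for Htr2c, against 350 in the members, but 1.11 against 37.2 for Slc17a8. They were 98.2 against 1118 for Nxph1 and 256 against 842 for Grik1. Lypd1 (41.4), Trhr (13.0) and Rapgef3 (18.5) were also below the members. These 3 genes and Grik1 stood above the highest means of the other PFC sets, 25.9, 0.718, 4.65 and 40.1 in that order.

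The members were then compared with the 2 deep-layer gates across all genes. UMIs were summed per library, and levels below are CPM normalized by edgeR's TMM method. Differences are log2 fold changes ± standard error from edgeR's quasi-likelihood test with the library as a block, and a gene passed at a Benjamini-Hochberg adjusted p under 0.05. Genes used by any gate were not tested. Against the corticothalamic gate 866 of 5896 genes were higher in the members (14.7%) and 878 lower (14.9%), 29.6% in all. Against the Fezf2 gate 777 were higher (13.2%) and 901 lower (15.3%), 28.5% in all. Without the library as a block the totals were 896 and 1041. The members were higher than both gates for 434 genes and lower than both for 443.

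Receptor and ligand genes were among the largest shared rises. Grik1 (chr16:87895900-88290265, minus strand), the kainate receptor subunit GluK1, ranged from 600 to 1223 CPM in the members with a median of 921, and no library of the corticothalamic gate passed 72.8 or of the Fezf2 gate 51.9. It was higher by 5.54 ± 0.195 and 5.48 ± 0.254 on the log2 scale (edgeR adjusted p = 1.27e-23 and 7.67e-20). Nxph1 (chr6:8948431-9249032, plus strand), neurexophilin 1, a secreted ligand of alpha-neurexins, had a median of 1148 CPM in the members (429 to 1870) against 34.3 and 13.1. Chrm2, the M2 muscarinic receptor, had 514 CPM (309 to 785) against 50.0 and 44.0.

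Other genes among the largest shared rises covered several functions. Kcnip1, an auxiliary subunit of A-type potassium channels, was higher by 4.05 ± 0.210 and 5.73 ± 0.358. Lcp1, the actin-bundling protein L-plastin, known best from leukocytes, was higher by 5.89 ± 0.252 and 5.32 ± 0.376, and the microglia list was at the low levels given above. Stard5 (4.37 and 5.24), Fgd6 (4.01 and 4.73), Svil (3.85 and 5.57) and Htr2c (4.56 and 3.83) were also among them. Each of these named genes stood above both gates in 9 of 9 libraries.

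The largest shared falls held receptors and adhesion molecules. Chrm3, the M3 muscarinic receptor, had a median of 245 CPM in the members (104 to 301) against 1091 and 818 in the gates, the reverse of Chrm2. Dscaml1, a cell adhesion molecule, ranged from 40.2 to 144 CPM against 381 to 701 and 440 to 873, a difference of -2.76 ± 0.116 and -3.08 ± 0.121. The differences were -2.70 and -2.62 for Ephb1, an ephrin receptor, and -2.20 and -2.05 for Neto1, an auxiliary subunit of kainate receptors. Iqgap2, a scaffold of the actin skeleton, fell by 3.06 against the Fezf2 gate. Serinc2, Rgma and Frmpd3 were below both gates in 9 of 9 libraries, Fam20a in 7 and Vwc2 in 6.

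The corticothalamic list turned direction between the gates. Of 5 tested corticothalamic genes, 3 were lower than in the corticothalamic gate (list median -1.02, all genes 0.0099), and 3 were higher than in the Fezf2 gate (median 0.83, all genes 0.0062). Tle4, a corepressor, had a median of 522 CPM in the members, 503 in the corticothalamic gate and 91.9 in the Fezf2 gate. Foxp2, in contrast, had 133, 552 and 91.5 CPM in that order. The 3 tested extratelencephalic genes were lower than in the Fezf2 gate, with differences of -3.26 ± 0.271 for Chst8, -3.20 ± 0.323 for Npr3 and -2.28 ± 0.187 for Parm1, and none passed the test against the corticothalamic gate. Of 3 tested upper-layer genes 2 were higher and 0 lower than in the corticothalamic gate, and 3 and 0 against the Fezf2 gate, and of 3 mid-layer genes 2 were higher and 1 lower, and 1 and 1. Svil, the 1 tested layer 6b gene, was higher than both. Etv1, a transcription factor of layer 5, had 339 CPM against 23.4 and 105, a rise of 3.66 ± 0.139 and 1.55 ± 0.144. Of 24 tested cortical transcription factors 11 were higher and 9 lower than in the corticothalamic gate, and 14 and 6 against the Fezf2 gate. The list counts of this paragraph stand beside 14.7% higher and 14.9% lower of all genes, and 13.2% and 15.3%, in the same order. Of the genes in this and the next 2 paragraphs, Etv1, Chst8, Npr3, Parm1, Htr4, Grin3a, Kcnab1, Kcnk2, Slit1 and Sema6a were singled out after their values were seen.

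Receptor lists held genes of both directions, and their counts stand beside the 14.7% of all genes that were higher and 14.9% lower than in the corticothalamic gate, and 13.2% and 15.3% against the Fezf2 gate. Of 12 tested receptors of monoamines, acetylcholine and peptides, 3 were higher and 4 lower than in the corticothalamic gate, and 4 and 7 against the Fezf2 gate. Htr4, a serotonin receptor, had 158 CPM in the members (80.3 to 264) against 6.03 and 46.0, and Htr1f, another one, differed by -1.21 ± 0.0859 and -0.91 ± 0.0935. Of 22 glutamate receptor genes 8 were higher and 11 lower than in the corticothalamic gate, and 9 and 8 against the Fezf2 gate. Grik1 led the rises, and Grin3a, the NMDA subunit GluN3A, followed with 2.77 ± 0.197 and 1.24 ± 0.234. Of 13 GABA receptor genes 2 were higher and 5 lower, and 2 and 6 against the Fezf2 gate. Gabrg3 was higher than in both gates, by 0.70 ± 0.0754 and 0.75 ± 0.0792, and Gabbr2, a GABA-B receptor subunit, differed by -1.49 ± 0.0971 and -0.71 ± 0.108.

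Ion channel and guidance lists also held genes of both directions, beside the same shares of all genes. Of 36 potassium channel genes 15 were higher and 13 lower than in the corticothalamic gate, and 12 and 11 against the Fezf2 gate. Kcnab1, a beta subunit, was higher by 2.98 ± 0.144 and 2.04 ± 0.164 and Kcnk2, the leak channel TREK-1, by 1.33 ± 0.130 and 2.35 ± 0.188. Of 34 axon guidance genes 15 were higher and 12 lower, and 10 and 18 against the Fezf2 gate. Lrrc4c, the netrin-G1 ligand, had a median of 2791 CPM against 972 and 979. Dcc, the netrin receptor, was higher by 1.06 ± 0.127 and 3.31 ± 0.160, and Slit1, a repulsive ligand, by 1.03 ± 0.110 and 3.68 ± 0.198. Sema6a, a transmembrane semaphorin, was higher by 2.77 ± 0.204 and 0.86 ± 0.229, the second of which did not pass without the block.

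Some immediate early genes differed, of which Homer1 and Arc were singled out after their values were seen. Homer1 was below both gates in 9 of 9 libraries, with differences of -0.87 ± 0.0951 and -1.06 ± 0.101, and those of Arc were -1.32 ± 0.193 and -1.02 ± 0.262. Without the block Homer1 did not pass against the corticothalamic gate, and Arc did not pass against the Fezf2 gate without the block or after thinning. Of 8 tested genes 4 were lower and 1 higher than in the corticothalamic gate, and 4 lower against the Fezf2 gate. None of 22 ribosomal protein genes passed in either comparison. Among all genes 14.7% were higher and 14.9% lower than in the corticothalamic gate, and 13.2% and 15.3% against the Fezf2 gate. The gates differ in depth, with library medians of 3484 to 10626 UMIs per nucleus in the corticothalamic and 5312 to 17195 in the Fezf2 gate, and the part of that in these differences was not tested beyond the thinned counts.

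**Figure D3:**
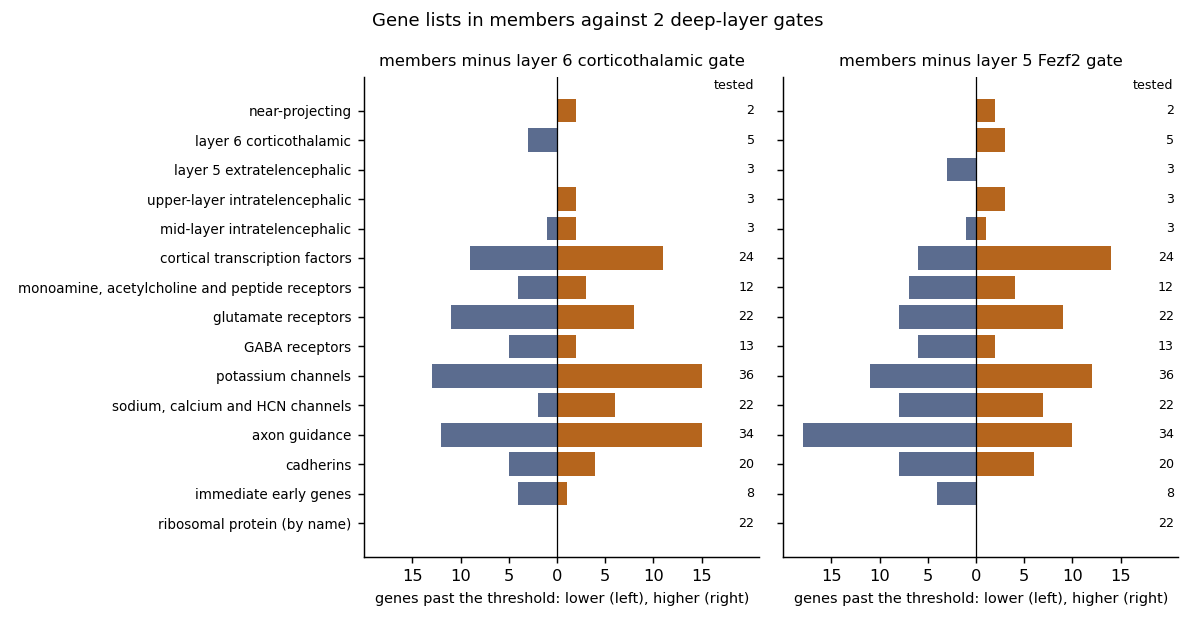
Number of genes of each list past the threshold in members against the layer 6 corticothalamic gate (left) and the layer 5 Fezf2 gate (right), with genes lower in members drawn to the left of 0 and genes higher to the right. The number at the right edge is how many genes of the list were tested. Extratelencephalic genes are lower only against the Fezf2 gate (3 of 3), corticothalamic genes are lower against the first gate and higher against the second, and channel and receptor lists have bars on both sides.

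The share of members among excitatory nuclei was higher in GF mice. It was 3.1%, 2.35% and 2.58% in the GF libraries, 1.81%, 1.35% and 1.60% in the SPF libraries, and 1.45%, 1.62% and 0.94% in the CGF libraries, and every GF value was above every other. The means were 2.68% ± 0.385, 1.59% ± 0.229 and 1.33% ± 0.354 (SD, n = 3 each). Over the 3 groups an exact two-sided permutation test gave p = 0.0179. For GF against SPF the exact permutation p was 0.1, the smallest that 3 against 3 libraries allow, and for CGF against SPF it was 0.5.

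The rule counts raw UMIs, so more nuclei pass it in deeper libraries. When each library was thinned to the same mean UMIs per excitatory nucleus before the rule was applied, 421 members were left and the means were 1.81% in GF, 1.30% in SPF and 1.10% in the CGF group. The exact permutation p over the 3 groups was again 0.0179, and the difference between GF and SPF mice was 0.512 points in place of 1.09. When each excitatory nucleus was instead thinned to 3000 UMIs and shallower nuclei were left out, 288 members were left, with means of 2.41% in GF and 0.939% in SPF mice, and the difference was 1.47 points (exact permutation p over the 3 groups = 0.0357). That limit left out 347 to 502 excitatory nuclei per GF library, out of 4225 to 4495. It left out 1030 to 1336 per SPF library, out of 3152 to 4219. The part of this uneven loss in the 1.47 points was not tested. The direction was the same in both ways of thinning, and the size of the difference moved with how depth was treated.

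**Figure D4:**
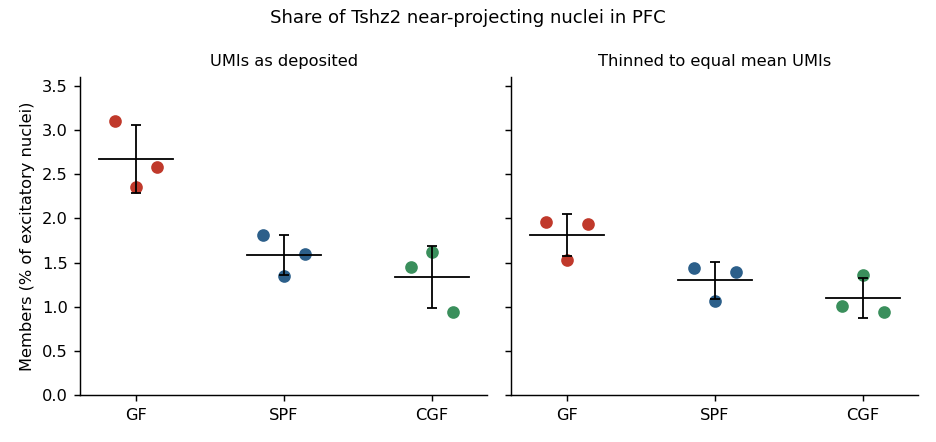
Members as a percentage of PFC excitatory nuclei (vertical axis, from 0), by group, on the UMIs as deposited (left) and after libraries were thinned to the same mean UMIs per excitatory nucleus (right). Points are libraries, the long bar is the mean and the whiskers are ± 1 SD over 3 libraries. On the left the GF points (2.35 to 3.1%) lie above all SPF and CGF points, and on the right the difference between the GF and SPF means is 0.512 points.

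Group comparisons of expression in the members used 1 sum of UMIs per mouse, and 4826 genes were tested. Between GF and SPF mice 782 genes were higher in GF mice (16.2%) and 877 lower (18.2%), 34.4% in all. Between GF and CGF mice 772 were higher (16%) and 846 lower (17.5%), 33.5% in all. The 2 comparisons share the GF libraries. Between CGF and SPF mice, whose libraries were of like depth, 3 genes were higher and 0 lower in the CGF group (0.0622%), while 356 had an unadjusted p under 0.05, and DESeq2 called 4 higher and 1 lower. Values did not overlap between the groups for 47.6% of genes in GF against SPF, 46.7% in GF against CGF and 11.6% in CGF against SPF. In counts simulated with a fixed spread, the GF-SPF test recovered 11% of 2-fold and 82% of 4-fold changes. That spread was not taken from these data, so these percentages do not measure the power of the test on the real counts. The CGF-SPF test was not simulated, and few calls do not show that groups were alike.

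Of the near-projecting genes, 5 were tested in these fits. Htr2c was at 717, 412 and 472 CPM in GF, 310, 245 and 353 in SPF and 308, 464 and 337 in the CGF group, and each GF value lay above each SPF value. It was higher in GF than SPF mice by 0.82 ± 0.207 (edgeR adjusted p = 0.00364), the only 1 of the 5 to rise. Lypd1 was at 142, 97.1 and 123 CPM in GF and 228, 158 and 192 in SPF mice, with no overlap, and fell by 0.67 ± 0.201 (edgeR adjusted p = 0.0117).

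Slc17a8 was at 31.2, 29.7 and 20.4 CPM in GF, 40.6, 76.3 and 57.1 in SPF and 78.5, 34.7 and 8.63 in the CGF group, and the CGF values spread over the range of both other groups. It fell by 1.09 ± 0.405 in GF against SPF mice (edgeR adjusted p = 0.0409). The Lypd1 call was lost with no filter on low counts and without GF mouse 6 or SPF mouse 30. That of Slc17a8 was lost with DESeq2, with no filter and without GF mouse 6 or 7 or SPF mouse 31 or 32. Trhr and Rapgef3 did not pass (0.50 ± 0.366 and -0.68 ± 0.368). None of the 5 passed in GF against CGF or in CGF against SPF mice.

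The same genes were also counted nucleus by nucleus. Htr2c was seen in 61.8% of GF, 49.3% of CGF and 48.9% of SPF members, and after thinning to 2000 UMIs in 42.4%, 39.2% and 40.7%. Lypd1 was seen in 47.7% of GF and 40.3% of SPF members, and after thinning in 18.7% and 30%, which is the direction of the CPM. For Slc17a8 the shares were 14.1% and 15.9%, and 3.17% and 12% after thinning. These shares pool the nuclei of 3 mice and were not tested.

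**Figure D5:**
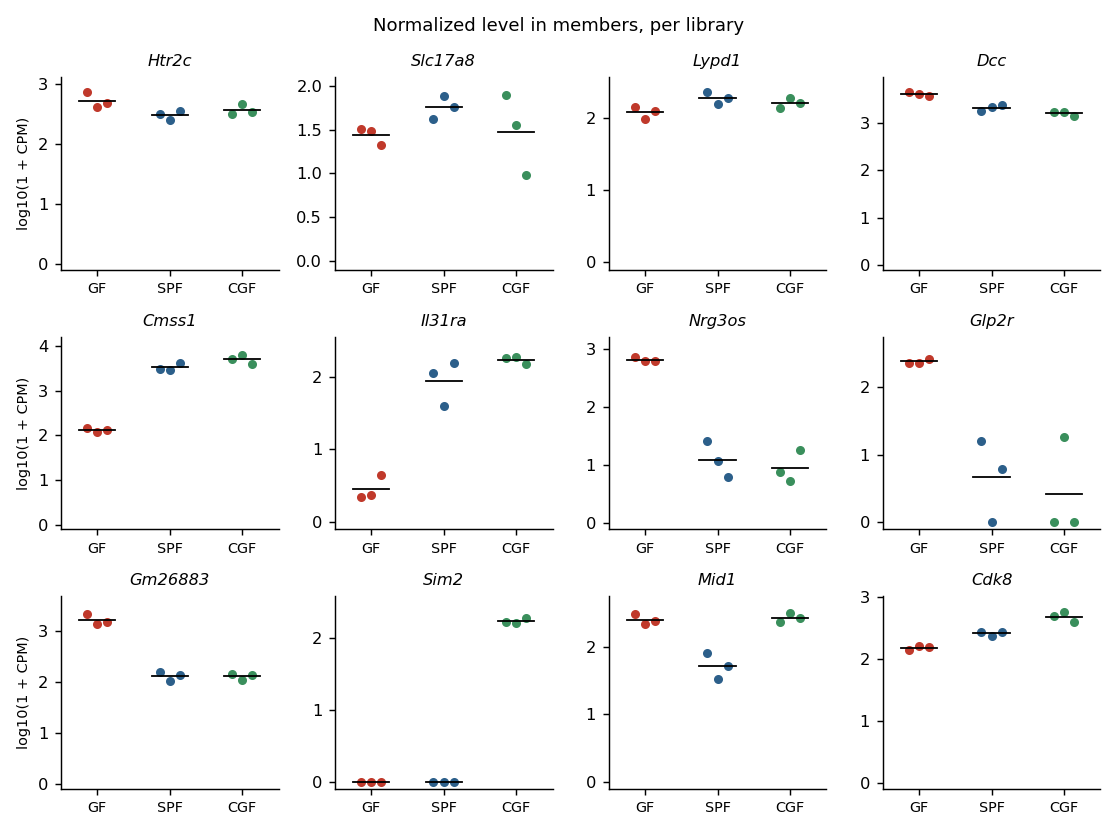
Level of 12 genes in the members by group, as log10 of 1 plus TMM-normalized CPM (vertical axis), 1 point per library with the group mean of the points as a bar. Cmss1, Il31ra, Nrg3os, Glp2r and Gm26883 separate GF mice from both other groups, Sim2 is at 0 in all GF and SPF libraries and at 165 to 190 CPM in CGF libraries, and Htr2c, Lypd1 and Slc17a8 shift less.

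The largest rises in GF mice were of transcripts that were close to absent elsewhere. Nrg3os (chr14:38898302-38958794, plus strand), a noncoding transcript annotated as antisense, was at 732, 608 and 624 CPM in GF, 25.4, 10.9 and 5.19 in SPF and 6.54, 4.34 and 17.3 in the CGF group. Its rise was 5.52 ± 0.294 against SPF mice (edgeR adjusted p = 1.60e-12) and 6.29 ± 0.341 against CGF mice. Glp2r, the receptor of glucagon-like peptide 2, was at 228, 226 and 262 CPM in GF mice and at most 17.4 in any other library. Rapgef4os1 had 0 UMIs in the SPF members, so that it was at least 13.96-fold higher in GF mice, with 3 counts over the SPF group as the floor. Sorbs2os (6.27 ± 0.592) and P2ry14, a receptor of UDP-sugars (4.84 ± 0.550), were the other large rises against SPF mice. Igf2bp3 (4.55 ± 0.594) and Slc24a5 (4.24 ± 0.474) were those against CGF mice. Of 56 tested transcripts annotated as antisense, 44 were higher and 1 lower in GF than SPF mice, with a median of 3.36. Against CGF mice 41 were higher and 2 lower, with a median of 2.95. These counts stand beside 16.2% higher and 18.2% lower of all genes against SPF mice, and 16% and 17.5% against CGF mice. The filter on low counts kept transcripts that were high in 1 group alone and left out those low in every group. The split of the antisense transcripts therefore depends in part on the filter. In the fit with the other excitatory nuclei 1044 antisense transcripts were tested.

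The largest falls had the opposite form. Il31ra, an interleukin 31 receptor subunit, was at 1.20, 1.35 and 3.4 CPM in GF, 112, 38.1 and 150 in SPF and 177, 182 and 147 in the CGF group. Cmss1 was at 146, 116 and 133 CPM in GF against 2970, 2850 and 4145 in SPF and 5085, 6378 and 3928 in the CGF group, a difference of -4.65 ± 0.207 and -5.28 ± 0.211. The differences were -4.58 and -5.55 for Xlr5a and -4.71 and -4.88 for mt-Nd6, a mitochondrial subunit of complex I, against SPF and CGF mice in this order, and -4.22 for Lars2 against SPF mice. Cmss1 and Lars2 belong to a list of 5 transcripts whose loci hold or resemble ribosomal RNA sequence, and 5 of 5 were lower in GF mice in both comparisons. Gm42418, the most abundant of them, was at 131 to 222 CPM in GF members and at 11975 to 24605 in all others.

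These same transcripts moved in the other excitatory nuclei of the same libraries. In the fit of both sets, Nrg3os was at 543 to 605 CPM in GF mice and at most 11.2 in the others, Cmss1 at 79.2 to 84.7 against 2418 to 5589, and Il31ra at 1.43 to 1.97 against 76.8 to 178. The depth and ribosomal transcript differences of the libraries go with them, and their part in the result cannot be told apart from that of the group.

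A noncoding transcript within Tshz2 was singled out after its values were seen. Gm26883 lies inside Tshz2 on the other strand (chr2:169633646-169888503, minus strand). It was at 2235, 1419 and 1537 CPM in GF members and 104 to 157 in all others, and was seen in 341 of 348 GF members (98.0%), 60 of 176 SPF members (34.1%) and 43 of 148 CGF members (29.1%). For each Tshz2 UMI GF members held 0.365 to 0.526 UMIs of Gm26883, SPF members 0.0310 to 0.0461 and CGF members 0.0284 to 0.0472, and in the other excitatory nuclei the ratios were 0.422 to 0.547, 0.0756 to 0.115 and 0.131 to 0.170. In the Hip nuclei that met the rule, Gm26883 was at 875 to 1371 raw CPM over all 9 libraries, those of SPF and CGF mice included, against 94.6 to 1849 in the PFC members. The sources used here do not state whether strand or introns were used in counting, so reads of a gene and its antisense partner cannot be told apart.

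Among the guidance and adhesion genes that passed, more were higher than lower in GF mice. Of all genes 16.2% were higher and 18.2% lower against SPF mice, and 16% and 17.5% against CGF mice. Of 30 tested axon guidance genes 11 were higher and 2 lower in GF than SPF mice (median 0.42, all genes 0.0013), and 12 and 3 in GF against CGF mice. Dcc was at 4399, 4021 and 3659 CPM in GF, 1731, 2098 and 2387 in SPF and 1708, 1696 and 1373 in the CGF group, and rose by 0.96 ± 0.150 and 1.33 ± 0.154. Lrrc4c was at 6644, 5760 and 5085 CPM in GF mice and at most 3458 in any other library, a rise of 1.05 ± 0.162 against CGF mice. Of 18 cadherin genes 8 were higher and 0 lower against SPF mice (median 0.49), and 7 and 1 against CGF mice, with Pcdh9, a protocadherin, higher by 0.97 ± 0.162 and 1.31 ± 0.166.

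Receptor and channel lists were compared between GF and SPF mice in the same way, beside a background of 16.2% higher and 18.2% lower. Of 12 GABA receptor genes 6 were higher and 0 lower (median 0.46), of 21 glutamate receptor genes 7 and 2 (median 0.20), of 32 potassium channel genes 9 and 4 (median 0.13), and of 20 sodium, calcium and HCN channel genes 3 and 2 (median -0.095). Grm5, a metabotropic glutamate receptor, rose by 0.78 ± 0.144. Kcnip4, a subunit of A-type channels, rose by 1.03 ± 0.146 and Kcnh7, a channel of the ERG family, by 1.10 ± 0.151. Of 12 receptors of monoamines, acetylcholine and peptides 3 were higher and 0 lower, among them Htr4 (0.89 ± 0.216). Against CGF mice 16% of all genes were higher and 17.5% lower. There the GABA receptor list had 4 higher and 0 lower (median 0.50) and the glutamate receptor list 8 and 5 (median 0.28). The potassium channel list had 10 and 4 (median -0.027) and the list of other channels 2 and 2 (median -0.059).

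Of 16 tested ribosomal protein genes 0 were higher, 7 lower and 9 not called in GF mice, in each of the 2 comparisons (medians -0.81 and -0.99), with Rpl14 at 75.6, 41.8 and 54.4 CPM in GF and 117, 136 and 140 in SPF mice. Of 32 nuclear genes of oxidative phosphorylation 5 were higher and 3 lower against SPF mice. Both lists are to be read beside the 16.2% of all genes tested that were higher and the 18.2% that were lower in GF than SPF mice. Homer1, an activity-regulated scaffold, was at 489, 483 and 491 CPM in GF, 213, 245 and 270 in SPF and 144, 230 and 319 in the CGF group, and rose by 1.01 ± 0.181 and 1.11 ± 0.190. Fkbp5, a target of the glucocorticoid receptor, rose by 1.97 ± 0.382 and 1.96 ± 0.404, and Homer1 and Fkbp5 were named after their values were seen. Of the 5 tested immediate early genes 1 was higher and 1 lower in GF than SPF mice (median -0.207). Of the interneuron list 1 of 2 tested genes was lower in GF than SPF mice and of the astrocyte list 1 of 2, Adarb2 (-1.68 ± 0.428) and Slc4a4 (-1.39 ± 0.317). The Adarb2 call was lost without SPF mouse 31, which was at 185 CPM against 76.1 and 36.3 in the other SPF mice, and the Slc4a4 call without nuclei over 2 times the median UMIs. The summed astrocyte list was at 7.29 to 8.34 UMIs per 10000 in GF members and 10.3 to 13.9 in SPF members. GF members held 0.511 to 0.556 UMIs per 10000 of the microglia list, above SPF members with 0.228 to 0.498 and CGF members with 0.152 to 0.295. For the extratelencephalic list GF members held 0.616 to 1.36, above SPF members with 0.274 to 0.498 and overlapping CGF members with 0.354 to 0.889. The mid-layer list took 3.21 to 4.18 in GF members, above CGF members with 1.67 to 2.02 and overlapping SPF members with 2.36 to 3.24. Among 2 tested mid-layer genes, 1 was higher against SPF mice and 2 against CGF mice. The Rorb call against SPF mice was lost after thinning and without SPF mouse 30. The upper-layer list took 2.10 to 2.59 in GF members, below CGF members with 3.07 to 3.88 and overlapping SPF members with 2.06 to 2.84. In the other excitatory nuclei the microglia list took 0.553 to 0.649 UMIs per 10000 in GF and 0.287 to 0.320 in SPF libraries. There, in the same order, the mid-layer list took 6.19 to 6.43 and 3.79 to 4.10. The astrocyte list took 5.90 to 6.42 and 9.13 to 9.97, and the upper-layer list 5.09 to 6.09 and 6.55 to 8.55. The extratelencephalic list overlapped there, at 0.989 to 1.10 and 0.786 to 1.02. The part of these lists in the other differences was not tested.

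Few genes passed the test between CGF and SPF mice, and none was on a list. Sim2 (chr16:94084931-94127032, plus strand), a transcription factor of the bHLH-PAS family, was at 170, 165 and 190 CPM in the CGF libraries and at 0 in all GF and SPF libraries. With 86 UMIs in CGF members it was at least 32.5-fold higher than in SPF and at least 152-fold higher than in GF mice, with 3 counts over the group as the floor. In the other excitatory nuclei it was at 120, 148 and 225 CPM in CGF libraries and at most 0.263 in the others.

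Mid1 (chrX:169685199-170005736, plus strand), a microtubule-associated ubiquitin ligase, was at 229, 312 and 268 CPM in CGF, 81.2, 32.7 and 51.9 in SPF and 305, 220 and 239 in GF mice, so that CGF and GF mice overlapped and SPF mice stood below. It was higher in CGF than SPF mice by 2.29 ± 0.288 (edgeR adjusted p = 0.000102). Cdk8, a kinase of the Mediator complex, was at 484, 568 and 397 CPM in CGF, 269, 229 and 270 in SPF and 139, 160 and 152 in GF mice, with no overlap between any 2 groups. It was higher in CGF than SPF mice by 0.94 ± 0.178 (edgeR adjusted p = 0.0336), a call that was lost after thinning and without any 1 of CGF mice 17 and 18, GF mouse 7 and the 3 SPF mice. In the other excitatory nuclei Cdk8 was at 352 to 460 CPM in CGF, 131 to 141 in GF and 229 to 258 in SPF libraries and Mid1 was at 155 to 308 CPM in CGF and 39.1 to 71.5 in SPF libraries.

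The difference between groups was then compared between the members and the other excitatory nuclei of the same libraries, as an interaction in 1 fit of 15631 genes with the library as a block. The difference between GF and SPF mice was more positive in the members for 20 genes (0.128%) and more negative for 17 (0.109%), 0.237% in all, with 924 at an unadjusted p under 0.05. DESeq2 called 2 and 7, and after thinning there were 3 and 8. For the difference between CGF and SPF mice there were 3 (0.0192%) and 2 (0.0128%), 0.032% in all, with 716 unadjusted and 1 by DESeq2. Without the block the counts were 1 and 0. In counts simulated with a fixed spread and 200 changed genes, the GF-SPF interaction test recovered 0% of 2-fold and 15% of 4-fold changes. The spread was again not taken from these data, so the power on the real counts was not measured. Few calls here do not show that the members changed like the other excitatory nuclei.

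Oprm1, the mu opioid receptor (chr10:6758506-7038198, plus strand), was the 1 named gene whose interaction passed under every alternative tried. In the other excitatory nuclei it was at 154, 129 and 130 CPM in GF mice and 22.9, 16.6 and 20.3 in SPF mice. In the members it was at 108, 100 and 145 in GF and 73.1, 96.4 and 97.7 in SPF mice, so that the members of SPF mice stood above all other excitatory sums of SPF mice. The difference of the differences was -2.38 ± 0.268 on the log2 scale (edgeR adjusted p = 9.96e-15).

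Genes that distinguish the members also appeared in this comparison. Nxph1 was at 1541, 1708 and 1020 CPM in GF members and 985, 1157 and 1053 in SPF members, which overlap, and at 41.7 to 59.5 against 69.3 to 83.6 CPM in the other excitatory nuclei. Its interaction was 1.09 ± 0.129, and that of Kcnip1 1.02 ± 0.152, and both were lost with DESeq2, without the block or after thinning. Htr2c, one of the near-projecting genes, had an interaction of 0.71 ± 0.164 (edgeR adjusted p = 0.0117), which was also lost under these alternatives and without GF mouse 5, SPF mouse 30 or SPF mouse 32. Nrg1, a ligand of ErbB receptors, was at 1446, 1790 and 1316 CPM in CGF and 1139, 1378 and 1670 in SPF members, and at 1549 to 2013 against 2786 to 3006 in the other excitatory nuclei. Its interaction between CGF and SPF mice was 0.79 ± 0.127 (edgeR adjusted p = 5.98e-06), lost only without the block.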

How the data were processed

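Nuclei of frozen PFC were purified by sucrose gradient and sequenced on the 10x Genomics platform, 1 library per mouse. The deposited matrices hold counts of UMIs per gene and barcode, not normalized, made by the authors with Cell Ranger 3.1.0 (per the file headers) and, per the labels' processing notes, CASAVA 1.8, the mm10 genome and Ensembl annotation. The series' design text names earlier versions of the kit and of Cell Ranger than the paper's methods and the headers do. Intron and strand settings are not given in the sources used here. Positions came from GENCODE vM21 on GRCm38, which held 30843 of 30905 gene IDs. There were 0 columns of other samples.

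Nuclei with at least 200 genes and at most 10% mitochondrial UMIs were kept. No doublet caller was run: nuclei with markers of other classes were left out by the gates, and leaving out nuclei over 2 times the median UMIs of their class was an alternative. UMIs were summed per library and gate. Sums were tested with edgeR 4.0.16 in R 4.3.3 (filterByExpr, TMM, glmQLFit, glmQLFTest, threshold 0.05 on Benjamini-Hochberg adjusted p), with the library as a block between gates. Standard errors were taken as the size of the log2 difference over the root of its F statistic. DESeq2 1.42.0, other depths, filters, limits of the rule and leaving out each library were alternatives. Other steps used Python 3.11.15, numpy 2.4.6, scipy 1.17.1, pandas 2.3.3 and matplotlib 3.10.9, and scripts were tested on simulated data. P-values of the group comparisons measure the spread between the 3 mice of a group. Those of the gate and interaction fits measure the spread that is left between sums once each library has its own term. P-values of the shares come from permuting the group labels of libraries. Depth is given as UMIs per library and nucleus, and shares of nuclei carry counting error beside the spread between mice.

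Deviations from the group mean of the members correlated with those of the other excitatory nuclei of the same library at 0.153 to 0.402 over 6297 genes. Between different libraries of a group the values were -0.311 to -0.0240. For the corticothalamic gate they were 0.0384 to 0.265 within and -0.204 to 0.0121 between libraries. The deviations of a group cancel out for each gene, which by construction pulls the values between libraries down.

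The members, gene lists and tests were chosen with earlier results of these data known. Named genes were all near-projecting genes, the 10 with the largest change shared by both gates in each direction, the 5 largest in each direction per group pair (with no overlap between the groups) and per interaction, both with a mean of at least 20 CPM in the members, up to 4 per list by mean CPM, and a set singled out after values were seen. The rule foresaw 3 gates, but the layer 6b gate was too small, so 2 were used. Predicted genes without a name were not named unless on a list or singled out. A floor of 3 counts over the group bounds a fold against 0. Results for some items are not reported here.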

Additional observations from a re-analysis of the deposited data

Results flagged for a closer look

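The genes below were singled out because the test of the difference itself, the interaction in edgeR's quasi-likelihood fit, passed an adjusted p of 0.05 between the members and the other excitatory nuclei of the same libraries. Values are differences of log2 fold changes ± standard error, with levels in CPM of that fit, and no explanation was weighed.

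For GF against SPF mice 5 of the 20 genes with more positive values in the members are given here. C1ql3, a secreted synaptic organizer, had 1.33 ± 0.323 (adjusted p = 0.0246), with 52.5, 64.0 and 72.7 CPM in GF and 51.6, 32.1 and 4.44 in SPF members. Stxbp2, an exocytosis protein, had 1.29 ± 0.239 (adjusted p = 0.000101), being lower in GF mice in both sets of nuclei but less so in the members, and the call was lost with DESeq2, without the block and after thinning. Nat8l, the enzyme that makes N-acetylaspartate, had 1.11 ± 0.280 (adjusted p = 0.0363), and SPF mouse 31 stood at 124 CPM in the members against 25.8 and 26.7 in the other SPF mice. The Nat8l call was lost under 12 alternatives and that of C1ql3 under 8, DESeq2, no block and thinning among them for both. Nxph1 had 1.09 ± 0.129 (adjusted p = 1.89e-13) and Kcnip1 had 1.02 ± 0.152 (adjusted p = 4.25e-08).

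Of the 17 genes with more negative values 5 are given here. Oprm1 had -2.38 ± 0.268 (adjusted p = 9.96e-15). Atp13a5, a cation-transporting ATPase, had -2.89 ± 0.459 (adjusted p = 5.59e-07), but its members were at 4.30, 147 and 4.44 CPM in the SPF mice, so that SPF mouse 31 alone was high. Its direction turned to 0.9075 without that mouse and to 0.4913 without nuclei over 2 times the median UMIs, and the call was lost under 4 alternatives. The same mouse was highest for Npas3, a transcription factor (-1.97 ± 0.266, adjusted p = 6.49e-10, 55.9, 202 and 66.6 CPM in SPF members), and for Thsd7b (-1.74 ± 0.325, adjusted p = 0.000108, 12.9, 96.4 and 84.4 CPM). The Npas3 value turned to 0.4994 after thinning, and its call was lost under 4 alternatives and that of Thsd7b under 6, each including the fit without SPF mouse 31. Pigk, a subunit of the GPI transamidase, had -1.23 ± 0.243 (adjusted p = 0.000468), with 78.1 to 112 CPM in GF and SPF members and 160 to 184 in GF against 79.8 to 84.6 in SPF nuclei of the other excitatory set, and its call was lost without the block, after thinning and without SPF mouse 30.

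For CGF against SPF mice 5 genes passed. Mpp5, a polarity scaffold, had 2.5 ± 0.570 (adjusted p = 0.0365), and Cux2, a transcription factor of upper layers, had 1.65 ± 0.375 (adjusted p = 0.0365), with 74.7, 78.8 and 111 CPM in CGF and 43.0, 27.6 and 13.3 in SPF members. Nrg1 had 0.793 ± 0.127 (adjusted p = 5.98e-06). Fam19a1 had -1.25 ± 0.215 (adjusted p = 5.38e-05), and Galntl6, a glycosyltransferase gene, had -0.859 ± 0.196 (adjusted p = 0.0365). The calls of Mpp5 and Cux2 were each lost under 12 alternatives, that of Galntl6 under 11 and that of Fam19a1 under 6, DESeq2 and no block among them for each.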

How the results depend on the processing

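After libraries were thinned to the same mean UMIs per excitatory nucleus before the rule was applied, which does not make the depth of the members equal, calls fell from 1659 to 791 for GF against SPF, from 1618 to 818 for GF against CGF, from 1744 to 1037 against the corticothalamic gate and from 1678 to 829 against the Fezf2 gate, with fewer UMIs and members by construction, and to 11 for the GF-SPF and 2 for the CGF-SPF interaction. Thinned gate sums left with no UMIs were dropped, and the layer 6b comparison was not run because its gate had 15 nuclei. With no filter on low counts the split of GF calls moved to 1436 higher and 903 lower against SPF, and 1444 and 808 against CGF mice.

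Sums of a library come from the same mouse. Without the library as a block the counts were 896 and 1041 for the gates, and 1 and 0 for the interactions, the last with 668 genes at an unadjusted p under 0.05 in edgeR and 1 gene called by DESeq2 with the block. No paired analysis was possible between groups because GF, SPF and CGF mice share no replicate numbers.

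CGF against SPF calls were 5 with DESeq2, 15 with no filter (7 higher and 8 lower), 7 without nuclei over 2 times the median UMIs and 5 with at least 6 Tshz2 UMIs. The GF-SPF interaction count was 9 with DESeq2, 23 with no filter and 22 without nuclei over 2 times the median. The CGF-SPF interaction count was 1 with DESeq2, 2 with no filter, 1 without nuclei over 2 times the median, 3 with at least 3 and 2 with at least 6 Tshz2 UMIs. Leaving out each library in turn gave 1336 to 1867 calls for GF against SPF, 1387 to 1744 for GF against CGF, 1464 to 1805 and 1437 to 1625 for the gates, 2 to 8 for CGF against SPF (8 without GF mouse 5, 6 without CGF mouse 19), 18 to 40 for the GF-SPF interaction (18 without SPF mouse 31, 22 without SPF mouse 30, as 8 and 14, or 32, as 7 and 15) and 2 to 8 for that of CGF and SPF mice (8 without SPF mouse 30, 2 without SPF mouse 31 or CGF mouse 18). The cause of these shifts was not tested.

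Among named genes, 33 of 47 GF-SPF calls, 35 of 47 GF-CGF calls, 2 of 3 CGF-SPF calls and 55 of 73 and 55 of 76 gate calls passed in every alternative that tested the gene. Some alternatives did not test every gene of the GF and gate calls, and such a gene was not counted as lost there. Of the gate calls lost, 12 and 8 were lost only without the block. Of 14 GF-SPF interaction calls 1 (Oprm1) and of 5 CGF-SPF calls 0 passed in every alternative. The direction turned for Atp13a5, to 0.4913 without nuclei over 2 times the median UMIs and 0.9075 without SPF mouse 31 (range -3.823 to 0.9075 over libraries left out), and for Npas3, to 0.4994 after thinning. The share of members kept its direction, with 0.512 to 1.47 points between GF and SPF mice under the settings of depth, rule and denominator and an exact permutation p of 0.1 for that pair in each, the smallest 3 against 3 allows, while the exact permutation p over the 3 groups ran from 0.00714 to 0.0357.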
